A study of Sus scrofa with 24 samples.

Results

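The 10 genes described here mark young neurons or particular neurons of the dentate gyrus and were measured in the hippocampus of neonatal piglets. They are DCX, SOX4, SOX11, STMN1, TUBB3 and DPYSL3, which are used as markers of immature neurons, and PROX1, CALB1, CALB2 and EOMES, which mark cells of the dentate granule lineage and neighbouring neurons. The genes were chosen by name, as the rows of the count table whose Entrez identifier carries that pig symbol. Of the 38882 genes listed in the table, 9 were matched to these 10 names and TUBB3 was not matched. Of the 9, 8 passed the filter on low values (at least 1 CPM, the read count scaled to library size, in at least 3 libraries) and were tested, while EOMES had no reads.

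The libraries were made from polyadenylated RNA of dissected hippocampal tissue. They came from 24 piglets of 1 cross (PIC Camborough dams and PIC 359 sires) at postnatal day 14. The study homogenized a weighed amount of tissue and does not give the share of dentate gyrus in it. Piglets were either small (SGA) or appropriate (AGA) for gestational age, selected by birth weight, and received a control formula (CON) or a formula in which the fat was hydrolyzed (HF). The combinations of size and diet gave 4 groups of 6 formula-fed piglets, written as AGA CON, SGA CON, AGA HF and SGA HF. The piglets formed 12 sex-matched pairs of an SGA and an AGA littermate fed alike, with 6 litters per diet, and the labels place 6 litters in each of 2 cohorts. Each piglet is 1 library, and smallness here is natural variation in birth weight within a litter, not an induced restriction.

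New granule neurons continue to be produced in the dentate gyrus after birth. Radial glia-like stem cells give rise to intermediate progenitors that express the transcription factor EOMES, then to neuroblasts and immature neurons. These transiently use SOX4 and SOX11, and the cytoskeletal proteins DCX, STMN1 and DPYSL3, while they migrate and extend neurites. PROX1 sets and maintains granule cell identity. CALB2 (calretinin) appears early in young granule cells and is also made by interneurons and, in some species, mossy cells, and CALB1 (calbindin) is a calcium buffer of mature granule cells. STMN1 and SOX4 are not limited to neurons in other tissues.

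Total counts ranged from 6017336 to 9284355 per library, so that 3 counts corresponded to 0.323 to 0.499 CPM. Such floors cover counting error only, since molecules were not tagged. Neuronal, glial and hippocampal pyramidal cell markers were present in every library. The summed level of 11 mature neuron genes lay between 8624 and 16993 CPM. Markers of tissue outside the hippocampus varied by library. The choroid plexus gene TTR reached 146 CPM in 1 library against a median of 11.8 CPM, and the pituitary gene GH1 reached 306 CPM in SGA HF replicate 4 against a median of 0. Of 5 genes used as thalamus markers, LHX9 and GBX2 stayed at or below 0.645 CPM, while TCF7L2 (12.3 to 28.4 CPM), PRKCD (19.9 to 70.2 CPM) and RORA (8.09 to 13.9 CPM) had reads in every library.

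Expression of the 9 matched genes spanned a wide range, from among the highest in the tissue to no reads. Per kilobase of annotated exon, STMN1, which binds tubulin and regulates microtubule assembly, had the highest level with 445 ± 47.1 CPM per kb (SD, n = 24), a higher level than that of 98.9% of the genes tested. CALB2 followed at 59.0 ± 23.6 CPM per kb, and SOX4, a SoxC transcription factor of newly committed neurons, at 19.1, between 15.6 and 25.1 in single libraries. PROX1 stood at 5.51 ± 0.800 CPM per kb, close to the middle of all tested genes (percentile 50.4). SOX11, the SoxC partner of SOX4, had 3.45 ± 0.581 CPM per kb and DPYSL3, a collapsin response mediator of growth cones, 2.03 ± 0.572. The last places were taken by CALB1 with 0.695 ± 0.564 and DCX, a microtubule-associated protein of migrating neurons, with 0.397 ± 0.226 CPM per kb. STMN1, CALB2, SOX4 and PROX1 were each above the next gene of this order in 24 of 24 libraries. SOX11 was above DPYSL3 in 23 libraries and DPYSL3 above CALB1 in 22, whereas CALB1 exceeded DCX in only 16, so the order of the last pair is not settled by these libraries.

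**Figure D1:**
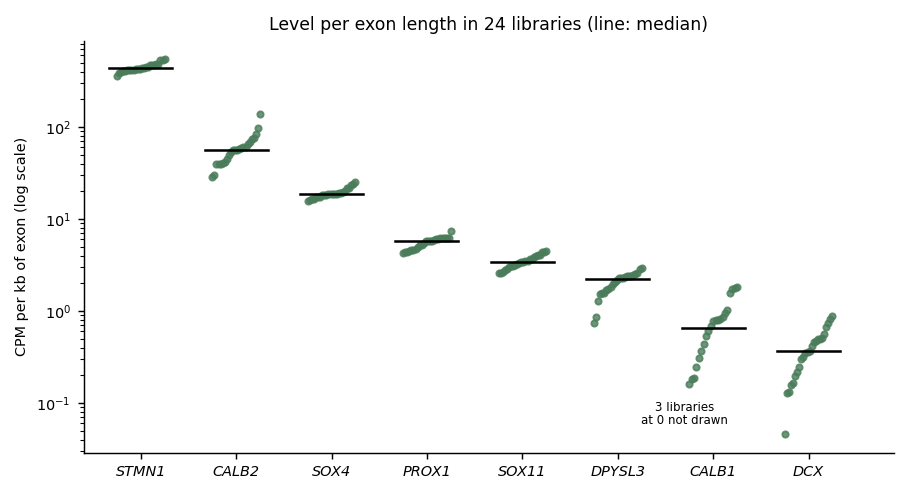
Level of the 8 tested genes per kilobase of annotated exon (log scale), with 1 point for each of 24 libraries sorted by value and a line at the median. STMN1 stood highest in each library, and the 3 libraries in which CALB1 had no reads are not drawn.

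DCX and CALB1 were close to the limit of detection. DCX (X:105739468-106059734, minus strand, 12 exon blocks of 3288 bases in Sscrofa10.2) had between 1 and 21 reads per library, a median of 9, and reached 1 CPM in 15 of 24 libraries. CALB1 (4:51177484-51199916, plus strand, 869 exonic bases) had between 0 and 12 reads, with a median of 4, and reached 1 CPM in 4 libraries. EOMES (13:15846197-15852753, minus strand, 3639 exonic bases) had 0 reads in all 24 libraries, which allows at most 0.323 to 0.499 CPM in a library. These values count only reads on the exons annotated in that build. The study also reported a moderate average RNA quality number (a measure of intactness), which it ascribed to pre-spliced RNA. STMN4 and MARCKSL1, from a list of other young neuron genes described below, likewise had at most 0.136 and 0.301 CPM in any library. Of the 24 matched genes of that list, 22 passed the filter. The part of annotation and RNA quality in the low values was not tested. The other genes were well covered. STMN1 (6:76904244-76934107) had 4124 to 7171 reads, SOX4 (7:17852748-17857158, a single exon) 475 to 818 and CALB2 (6:13904114-13933267) 248 to 1185. PROX1 (9:142424393-142480770) had 245 to 508 reads, SOX11 (3:138751621-138754531, a single exon) 51 to 111 and DPYSL3 (2:155127544-155234332) 13 to 73.

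Across the 4 groups the levels of each gene overlapped. SOX4 was at 81.1 ± 8.37 CPM in AGA CON, 91.9 ± 13.3 in AGA HF, 81.3 ± 8.48 in SGA CON and 82.7 ± 11.9 in SGA HF (SD, n = 6 here and below). SOX11 was at 9.97 ± 1.14, 10.9 ± 1.32, 10.1 ± 2.07 and 9.21 ± 2.01 CPM in the same order. STMN1 was at 746 ± 71.1, 822 ± 95.0, 744 ± 94.0 and 743 ± 41.8 CPM. For SOX4, SOX11 and STMN1 the highest mean was that of AGA HF, with SDs that overlapped those of the other groups. DPYSL3 had 5.79 ± 1.11 CPM in AGA CON, 5.02 ± 1.94 in AGA HF, 6.13 ± 2.33 in SGA CON and 6.54 ± 0.812 in SGA HF, and its lowest mean was that of AGA HF. DCX had 1.44 ± 0.738, 1.24 ± 0.660, 1.18 ± 0.826 and 1.36 ± 0.914 CPM in that order, with single libraries between 0.152 and 2.91 CPM. PROX1 was the steadiest of the granule lineage genes over the groups, at 48.4 ± 6.63, 49.1 ± 5.83, 45.2 ± 6.00 and 49.9 ± 9.80 CPM. CALB2 had 83.6 ± 20.9, 69.8 ± 36.9, 98.8 ± 50.0 and 82.7 ± 18.2 CPM, where the large SD of SGA CON came with 1 library at 195 CPM and that of AGA HF with 1 at 137 CPM. CALB1 was at most 1.57 CPM in any library, and its group means lay between 0.460 and 0.766 CPM.

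The first comparison asks whether birth size changes these genes in the hippocampus. None of the 8 tested genes differed between SGA and AGA piglets in edgeR's quasi-likelihood test at the threshold the study used for its heat map (an FDR p, the p adjusted over all genes and contrasts, under 0.4), which 0.478% of all tested genes passed. At an unadjusted p under 0.05, 2 of 8 genes passed, against 10.6% of all tested genes. These were STMN1, with a lower value in SGA piglets (as 4.95% of all tested genes), and DPYSL3, with a higher one (5.6%). Both encode proteins that act on the neuronal cytoskeleton. Because each library is hippocampal tissue of many cell types, fewer cells of a type, a smaller share of a region and less RNA per cell cannot be told apart.

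STMN1 had its lowest level at 621, its median at 789 and its highest at 930 CPM in the 12 AGA libraries, and 662, 715 and 919 CPM in the 12 SGA libraries. The groups overlapped over nearly their whole range. The difference was -0.12 ± 0.043 on the log2 scale (SE, edgeR, adjusted p = 0.599). When each SGA piglet was compared with its own littermate, STMN1 was lower in the SGA piglet in 8 of 12 litters. The mean littermate difference was -0.073 ± 0.058 (SE) and did not pass an exact two-sided sign-flip test over the 12 litters (p = 0.223). When litter replaced the other covariates as a block, the edgeR estimate was -0.073. STMN1 was higher in the SGA piglet in litters 4, 5, 10 and 12. Without litter 5 the edgeR difference was -0.14 with an adjusted p of 0.195. That fit called 1284 of all 16326 tested genes for size, against 78 with all 12 litters. Without litter 12 the exact littermate test gave p = 0.043.

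DPYSL3 ranged from 2.14 to 7.45 CPM with a median of 5.52 in AGA piglets, and from 2.47 to 8.43 CPM with a median of 6.70 in SGA piglets. Its difference was 0.32 ± 0.149 on the log2 scale (SE, edgeR, adjusted p = 0.716). Within litters the SGA piglet was higher in 8 of 12 litters by 0.22 ± 0.176 on average (exact sign-flip test, p = 0.244). Litter 9 had the highest difference and litter 12, at -1.14, the lowest. Without litter 12 the mean difference was 0.35 (exact sign-flip test, p = 0.0127). Without litter 5 the edgeR adjusted p was 0.376, in the fit that called 1284 of all tested genes. The values of both STMN1 and DPYSL3 depended on which litters were included, and neither gene passed the FDR threshold with all 12.

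**Figure D2:**
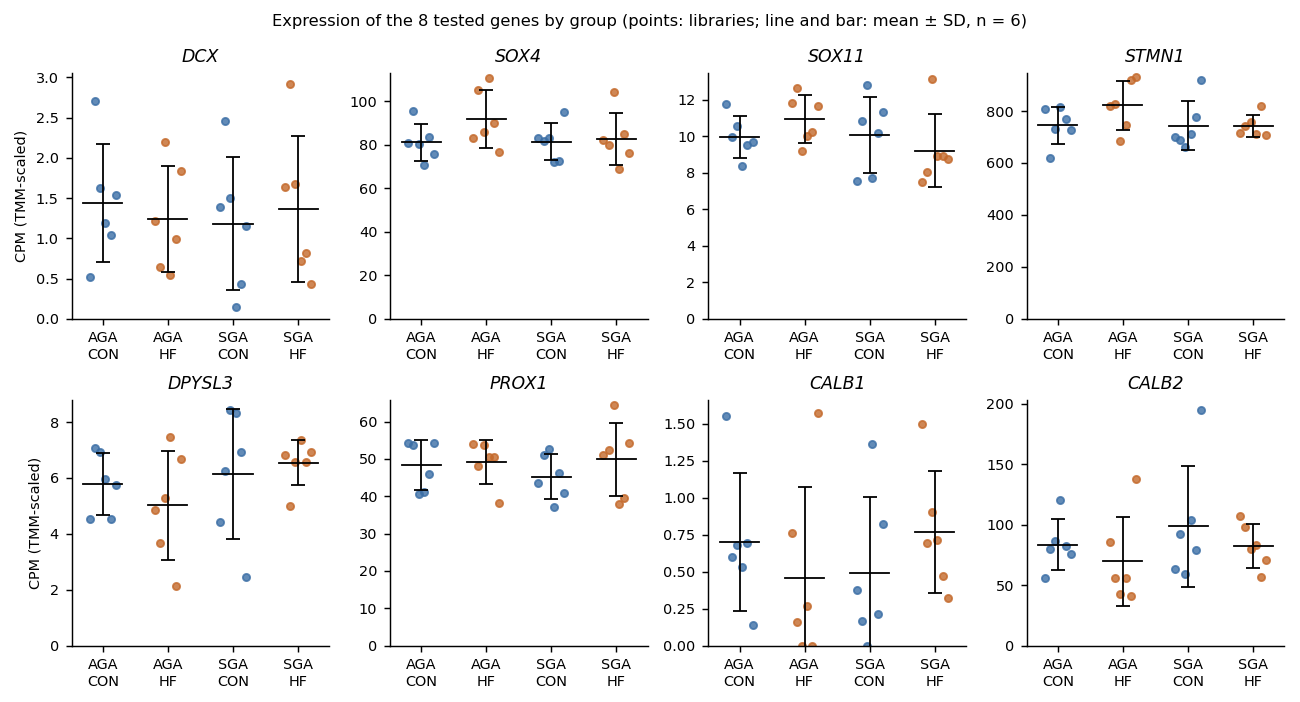
Expression of the 8 tested genes in CPM by group, with 1 point per library, blue for CON and orange for HF, and a line and bar for the mean and SD of 6 piglets. The groups overlap for each gene, and CALB2 in SGA CON has 1 library at 195 CPM.

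The other immature neuron genes had smaller or less certain differences by size. SOX4 had a median of 83.3 CPM in AGA and 82.1 CPM in SGA piglets, and SOX11 10.1 and 8.91 CPM. The log2 differences were -0.014 ± 0.049 for SOX4 and -0.14 ± 0.111 for SOX11 (SE, edgeR, adjusted p = 0.979 and adjusted p = 0.866). DCX had a median of 1.20 CPM in AGA and 1.27 CPM in SGA piglets, with a difference of -0.36 ± 0.292 (edgeR, adjusted p = 0.873). The mean littermate difference of DCX had opposite signs in the 2 cohorts, as did the smaller ones of PROX1 (0.048 and -0.13) and CALB1 (-0.041 and 0.36). In cohort 1 the DCX mean was 0.45 ± 0.342, with the SGA piglet higher in 3 of 6 litters (exact sign-flip test, p = 0.344). In cohort 2 it was -0.77 ± 0.335, with the SGA piglet higher in 1 of 6 litters (exact sign-flip test, p = 0.0938, where 6 litters allow no p below 0.0312). None of these differences between the cohorts was tested.

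For the granule lineage genes, the size comparison likewise gave no call. PROX1 had a median of 50.5 CPM in AGA and 48.6 CPM in SGA piglets, and a log2 difference of 0.015 ± 0.085 (SE, edgeR, adjusted p = 0.989). CALB1 had a difference of -0.45 ± 0.552 (edgeR, adjusted p = 0.925), the widest error of the 8 genes, at 0 to 12 reads per library. CALB2 had a median of 78.0 CPM in AGA and 81.2 CPM in SGA piglets. Its sign depended on the model. With the surrogate variables (patterns estimated from the data and used as covariates) the difference was -0.077 ± 0.122 (edgeR, adjusted p = 0.945), whereas the SGA littermate was higher in 8 of 12 litters by 0.25 ± 0.184 (exact sign-flip test, p = 0.197).

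In the littermate test as a whole, none of the 8 genes had a p under 0.05, against 12.6% of all tested genes. The smallest p was that of CALB2.

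**Figure D3:**
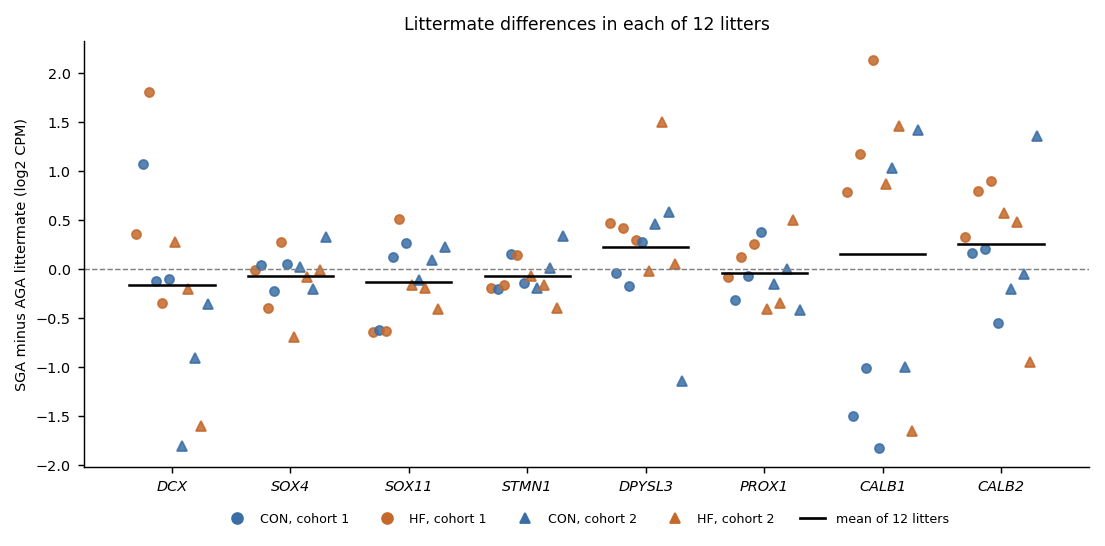
Difference in log2 CPM between the SGA and the AGA piglet of each of 12 litters for the 8 tested genes, with circles for cohort 1, triangles for cohort 2, blue for CON, orange for HF and a line at the mean. Each gene has litters on both sides of 0, with DCX and CALB1 the most spread out.

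The same comparison was made for other genes of young neurons, grouped by role. The group of cytoskeletal, growth cone and migration genes had 22 tested members of 27. In it CRMP1, a relative of DPYSL3 in the collapsin response mediator family, rose from 856 ± 150 to 999 ± 168 CPM (SD, n = 12) with a log2 difference of 0.14 ± 0.032 (edgeR, adjusted p = 0.308). It was the only member of this group with an FDR p under 0.4. At an unadjusted p under 0.05 in edgeR, 2 of the 22 were higher and 0 lower. The median log2 difference of the group was 0.062, with 16 of 22 above 0, against a median of -0.00225 for all tested genes. In the littermate test 7 of the 22 were higher in SGA piglets at p under 0.05 and 0 lower, against 5.78% higher and 6.81% lower of all tested genes. Other neuronal genes had values in the same direction in this test. Of 11 mature neuron genes 3 were higher and 0 lower, with a median difference of 0.17 against 0.11 for the 22. Of 8 CA pyramidal cell genes 2 were higher and 0 lower, with a median of 0.21. At an unadjusted p under 0.05 in edgeR, 5 of these 11 and 3 of these 8 were higher and 0 lower, where 5.6% of all tested genes were higher. Of the DPYSL3 relatives, CRMP1, DPYSL4 and DPYSL5 were among the 7, with mean littermate differences of 0.23, 0.14 and 0.27, whereas DPYSL2 had 0.017 (exact sign-flip test, p = 0.63) and DPYSL3 itself, at 0.22, did not pass. The 7 also held ST8SIA2, which adds polysialic acid to NCAM in young neurons, at 0.23 (exact sign-flip test, p = 0.041). STMN1, SOX4 and SOX11 had mean littermate differences below 0, at -0.073, -0.074 and -0.13. So did DCX, at -0.16 ± 0.292 (SE, exact sign-flip test, p = 0.592).

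Earlier stages were represented by 10 tested stem cell and radial glia genes and 14 tested genes of neuronal commitment and cell division. None of them had an FDR p under 0.4 in edgeR. In the littermate test 1 stem cell gene was lower in SGA piglets at p under 0.05 and 0 were higher. It was HOPX, at -0.19 (exact sign-flip test, p = 0.0376). Of the commitment genes 0 were higher and 0 lower. PAX6, a transcription factor of neural stem cells, had a log2 difference of 0.22 (edgeR, adjusted p = 0.611), and NEUROD2, a neuronal differentiation factor, 0.16 (edgeR, adjusted p = 0.506). Among 9 other tested granule cell genes of 12, none had an FDR p under 0.4 in edgeR. At an unadjusted p under 0.05 in edgeR, 2 were higher in SGA piglets and 1 lower. In the littermate test 1 was higher and 0 lower, against 5.78% higher and 6.81% lower of all tested genes. It was BCL11B, higher in the SGA piglet in 9 of 12 litters, at 0.22 (exact sign-flip test, p = 0.0132). LEF1, a WNT pathway transcription factor needed for dentate development, had the smallest p in edgeR, with a log2 difference of 0.30 (adjusted p = 0.494). Among 11 mature neuron genes only CAMK2A, a postsynaptic kinase of excitatory neurons, was called. It had 3360 ± 302 CPM in AGA and 3603 ± 272 CPM in SGA piglets (SD, n = 12), a log2 difference of 0.13 (edgeR, adjusted p = 0.308). In the littermate test CAMK2A did not pass, at 0.10 with the SGA piglet higher in 10 of 12 litters (exact sign-flip test, p = 0.0991). Oligodendrocyte genes moved the other way in the littermate test, with 5 of 10 lower in SGA piglets and 0 higher at p under 0.05. Their summed level ranged from 14334 to 25797 CPM in AGA and from 12057 to 23380 CPM in SGA piglets, and its part in the size values above was not tested.

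Diet gave no call either. None of the 8 genes differed between HF and CON piglets at an FDR p under 0.4 (edgeR, 0.159% of all tested genes), and none had an unadjusted p under 0.05 (7.09% of all tested genes). STMN1 had medians of 730 CPM on CON and 753 CPM on HF and the smallest p, with a log2 difference of 0.077 ± 0.044 (SE, edgeR, adjusted p = 0.784). CALB2 had medians of 81.1 CPM on CON and 75.3 CPM on HF, with a difference of -0.19 ± 0.124 (edgeR, adjusted p = 0.827). The CALB2 value differed by cohort, at 0.084 in cohort 1 and -0.52 in cohort 2 when each was fitted alone in edgeR, and the difference between the cohorts was not tested. Over litter means, with 6 litters on each diet, none of the 8 genes passed an exact permutation test at p under 0.05 (4.1% of all tested genes), and the smallest p was 0.156 for SOX4.

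Among the other lists, diet gave no call at the FDR threshold. The nearest was PDYN, a dynorphin precursor made by granule cells, with 109 ± 22.7 CPM on CON and 128 ± 32.8 CPM on HF (SD, n = 12) and a log2 difference of 0.32 ± 0.086 (edgeR, adjusted p = 0.421). Of the 9 other granule cell genes tested, 3 were higher on HF at an unadjusted p under 0.05 (PDYN, C1QL3 and BCL11B) and 0 were lower, against 3.59% and 3.5% of all tested genes. Littermates share a diet, and over litter means none of the 9 had a p under 0.05 (exact permutation test, p = 0.225 for PDYN, 0.0779 for C1QL3 and 0.0671 for BCL11B). In edgeR 2 of 8 CA pyramidal cell genes and 2 of 8 inhibitory interneuron genes were also higher on HF, and 0 lower. Of 11 mature neuron genes 0 were higher and 1 lower. The median log2 differences were 0.14 for granule cell, 0.13 for pyramidal, 0.073 for interneuron and -0.035 for mature neuron genes. Over litter means 0 of these pyramidal, interneuron and mature neuron genes passed. PROX1 had a log2 difference of 0.035 ± 0.086 for diet (edgeR, adjusted p = 0.967). In the young neuron group DCLK1, a relative of DCX, had the smallest edgeR p, with 40.9 ± 5.76 CPM on CON and 50.8 ± 8.36 CPM on HF. Its log2 difference was 0.18 (edgeR, adjusted p = 0.659). Over litter means 2 of the 22 young neuron genes were higher on HF at p under 0.05 and 0 lower, against 4.1% of all tested genes. These were DCLK1 at 0.31 (exact permutation test, p = 0.0152) and IGFBPL1 at 0.22 (p = 0.013). DCX itself had a difference of -0.20 ± 0.287 (edgeR, adjusted p = 0.938). FABP7, a fatty acid binding protein of radial glia, was at 743 ± 168 CPM on CON and 689 ± 110 CPM on HF, with a log2 difference of -0.18 (edgeR, adjusted p = 0.585).

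The size by diet interaction asks whether the difference between SGA and AGA piglets changed with the diet. None of the 8 genes passed at an FDR p under 0.4 (edgeR, 0.049% of all tested genes) or at an unadjusted p under 0.05 (4.01%). CALB1 had the largest estimate, 1.61 ± 1.064 on the log2 scale (SE, edgeR, adjusted p = 0.828), which rests on 0 to 12 reads. The exact permutation test on littermate differences of the 6 HF against the 6 CON litters gave no p under 0.05 among the 8 genes (4.36% of all tested genes). The pairwise comparisons gave no call among these 8 genes at that threshold. The background shares by edgeR were 0.129% for SGA CON against AGA CON, 0.288% for SGA HF against AGA HF, 0.0674% for AGA HF against AGA CON and 0.0919% for SGA HF against SGA CON. One of these 32 values had an unadjusted p under 0.05, that of STMN1 in SGA HF against AGA HF, where 8.02% of all tested genes did. For the other comparisons this share was 6.59% for SGA CON against AGA CON, 6.09% for AGA HF against AGA CON and 5.16% for SGA HF against SGA CON. In SGA HF against AGA HF, STMN1 lay between 686 and 930 CPM with a median of 824 in AGA HF and between 708 and 818 CPM with a median of 729 in SGA HF. The difference was -0.15 ± 0.06 on the log2 scale (SE, edgeR, adjusted p = 0.655).

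The labels place litters 1 to 6 in cohort 1 and litters 7 to 12 in cohort 2, with both diets and sizes equally present in each. Of size, diet, their interaction, sex and cohort, only cohort had members with a p under 0.05 in the exact tests. Over litter means, 3 of 8 genes had a p under 0.05 in an exact two-sided permutation test, against 12.5% of all tested genes. DCX and PROX1 were lower in cohort 2, and STMN1 was higher. All 3 had a Benjamini-Hochberg adjusted p over all tested genes under 0.4, as did 12.5% of genes.

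DCX had between 0.518 and 2.91 CPM in cohort 1, with a median of 1.63, and between 0.152 and 1.83 CPM in cohort 2, with a median of 0.904. The 3 highest libraries, at 2.46, 2.71 and 2.91 CPM, all belonged to cohort 1. The litter means fell by 0.77 on the log2 scale (SE 0.235, exact permutation test over 6 against 6 litters, p = 0.0108, adjusted p = 0.263). Apart from litter 2 at 0.19, the litter means of cohort 1 (0.75 to 1.51) were above all those of cohort 2 (-0.36 to 0.68). PROX1 had between 40.5 and 64.3 CPM in cohort 1, with a median of 52.5, and between 37.1 and 54.3 CPM in cohort 2, with a median of 43.6. Its litter means fell by 0.21 (SE 0.062, exact permutation test, p = 0.00433, adjusted p = 0.214). The lowest PROX1 litter mean of cohort 1, 5.54 in litter 6, was above all those of cohort 2 except litter 12 at 5.56. STMN1 had medians of 724 CPM in cohort 1 and 773 CPM in cohort 2, and its litter means were higher by 0.12 in cohort 2 (SE 0.053, exact permutation test, p = 0.0455, adjusted p = 0.388).

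**Figure D4:**
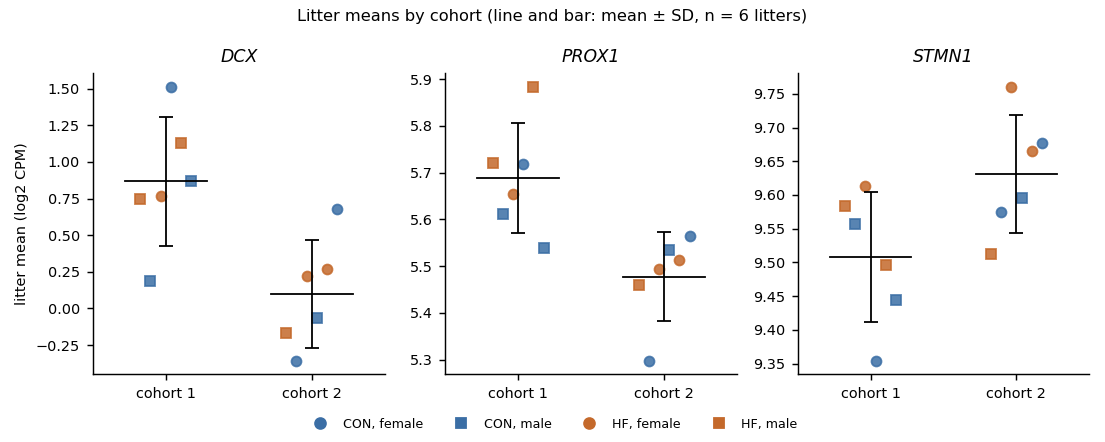
Litter means in log2 CPM of DCX, PROX1 and STMN1 by cohort, with 1 point per litter (square for male, circle for female, blue for CON, orange for HF) and a line and bar for the mean and SD of 6 litters. DCX and PROX1 stand lower in cohort 2 and STMN1 higher, with some overlap in each, and the vertical axes do not start at 0.

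Male litters were not evenly split, with 4 in cohort 1 and 2 in cohort 2. In a fit added after the data were seen, counts were summed by litter and fitted in edgeR with cohort, diet and sex. In it DCX differed by -1.13 ± 0.255 on the log2 scale (SE, adjusted p = 0.0784) and PROX1 by -0.21 ± 0.074 (adjusted p = 0.278). STMN1 was no longer under 0.4 (0.10 ± 0.063, adjusted p = 0.583). Sex itself gave no p under 0.05 for any of the 8 genes (exact permutation test over litter means, 5.08% of all tested genes). With each litter left out in turn, the exact p for DCX stayed between 0.00433 and 0.0195 and that for PROX1 between 0.00216 and 0.00866. That for STMN1 lay between 0.0238 and 0.0974, and with plain library totals in place of TMM scaling it was 0.162. SOX4 and SOX11 had cohort differences of -0.10 and -0.11 that did not pass (exact permutation test, p = 0.121 and p = 0.18).

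At p under 0.05 in the cohort test, 0 of 10 stem cell genes were lower and 1 higher, 1 of 14 commitment genes was lower and 1 higher, and 1 of 22 young neuron genes was lower and 4 higher, where 6.1% of all tested genes were lower and 6.39% higher. NEUROD1, a granule neuron differentiation factor, was lower in cohort 2, with a log2 difference of -0.28 ± 0.052, and so was ST8SIA2 at -0.48 ± 0.101 (both p = 0.00216 in the exact permutation test, the smallest p that 6 against 6 litters can give). TUBA1A, NCAM1, ELAVL3 and DPYSL4 of the young neuron group were higher in cohort 2, by 0.19, 0.11, 0.16 and 0.23. None of the 9 other granule cell genes tested passed, and 2 of them had values above 0. Glial markers moved with cohort too. In cohort 2, 6 of 10 oligodendrocyte genes and 5 of 6 microglia genes were higher, and 2 of 6 astrocyte genes were lower. The summed oligodendrocyte level was 12057 to 23738 CPM in cohort 1 (median 17637) and 13177 to 25797 CPM in cohort 2 (median 21980). The microglia sum was 73.0 to 237 CPM in cohort 1 (median 107) and 125 to 215 CPM in cohort 2 (median 177). The part of these cells in the DCX, PROX1 and STMN1 values was not tested. The labels do not say what set the 2 cohorts apart, and cohort cannot be told apart from whatever else differed between them.

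The spread between piglets of the same group differed widely among the 8 genes. The coefficient of variation within groups was 10.3% for STMN1, 12.7% for SOX4, 15.0% for PROX1 and 16.8% for SOX11, which put them between percentiles 27.2 and 72.8 of the 500 genes closest to each in mean level. DPYSL3 varied by 28.4% (percentile 65.2). CALB2 varied by 40.6%, where genes of like level had a median of 11.2%, and stood at percentile 99.6 of them. Counting error alone would give CALB2 4.02%. CALB2 ranged over 4.77-fold between libraries, from 40.9 CPM in AGA HF replicate 5 to 195 CPM in SGA CON replicate 6. DCX and CALB1 had larger coefficients, 60.5% and 83.7%, at percentiles 91.4 and 89.6 of genes of like level, where counting error alone would give 32.3% and 47.1%.

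The genes that varied together with each member over the 24 libraries, after the group means were removed, are given as a description, since libraries share litters, cohorts and sexes. CALB2 was most like CUX2 (r = 0.85), PARM1 (r = 0.84) and PAPPA2 (r = 0.84), and STMN1 like OCEL1 (r = 0.87), ATCAY (r = 0.86) and BRINP1 (r = 0.86). DPYSL3 was most like ZNF395 (r = 0.85), DIAPH1 and TMBIM4 (both r = 0.81). DCX was most like GVIN1 (r = 0.83), PPP4R3B and ADAM10, at a few reads per library. PROX1 was most like CLCC1 (r = 0.78), CALCB and ATP13A4, CALB1 like VIPR1 (r = 0.77), CBLN2 and CNN1, SOX4 like SERP1 (r = 0.77), PABPC1 and HSPB11, and SOX11 like BET1 (r = 0.69), OAS1 and ACAD11. No member was among the 3 genes most like another member.

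Among the members themselves, the calcium-binding pair CALB1 and CALB2 varied together most closely (r = 0.66). SOX4, SOX11 and PROX1, the 3 transcription factors, had positive values with each other, between 0.37 for SOX11 with PROX1 and 0.44 for SOX4 with PROX1. STMN1 and DPYSL3, whose values by size had opposite signs, also lay opposite each other within groups (r = -0.58). SGA CON replicate 6 (919 and 2.47 CPM) and AGA HF replicate 5 (918 and 2.14 CPM) were both high in STMN1 and low in DPYSL3. The value without these libraries was not computed. PROX1 had negative values with STMN1, CALB1 and CALB2, each between -0.38 and -0.39. DCX was not closely tied to any of the others, with its highest value for PROX1 (r = 0.30).

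**Figure D5:**
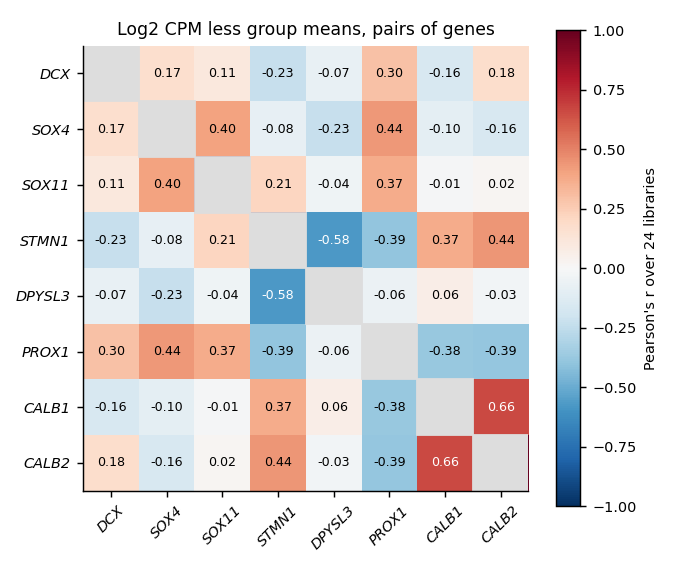
Pearson's r between pairs of the 8 tested genes over 24 libraries, computed on log2 CPM less the group means and shown without a test. CALB1 with CALB2 is the highest at 0.66 and STMN1 with DPYSL3 the lowest at -0.58.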

How the data were processed

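The authors extracted hippocampal RNA, made stranded single-end libraries, trimmed reads with Trimmomatic 0.33, aligned them to Sscrofa10.2 with STAR 2.5.2a and counted reads on the exons of Entrez genes with featureCounts (Subread 1.5.0), per the labels and the study's methods. They deposited whole-number counts per gene, not normalized. One entry without an identifier (0.613 to 1.62% of counts) was left out. Symbols came from a name table of Sscrofa11.1, in which 23036 of 38882 identifiers matched; coordinates are those of the deposited files.

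Counts were scaled by TMM after the filter of 1 CPM in 3 libraries, which left 16326 genes. These were fitted in R 4.3.3 with edgeR 4.0.16 (quasi-likelihood) on group, sex and 5 surrogate variables from sva 3.50.0. P-values of 7 contrasts were adjusted together (Benjamini-Hochberg) and called at an FDR p under 0.4, the study's threshold, which accepts many false calls. Exact tests took log2 CPM (prior count 2) and used 4096 sign flips over 12 litters or 924 splits of 6 against 6 litter means. Both scripts were tested on simulated data. Littermates are paired by the labels, and their deviations from group means correlated at 0.0144 to 0.329 (mean 0.154).

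The genes and lists were chosen with earlier results of these data known. Named beside the 10 genes are list genes with an FDR p under 0.4, otherwise the list gene with the smallest p for size and for diet, and the 3 genes most correlated with each member. Genes of the littermate, diet and cohort tests that are named beyond this rule were chosen after their values were seen. Only the members, the young neuron, stem cell, commitment, granule cell, mature neuron, CA pyramidal cell and interneuron lists and the cell types that moved with a result are described. Alternatives were limma 3.58.1 voom, DESeq2 1.42.0, other scaling, filters and covariates, the litter block, each cohort alone and each litter left out.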

Additional observations from a re-analysis of the deposited data

Results flagged for a closer look

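A value far from the rest of its group was looked for in 32 groups of 6 libraries (8 genes in 4 groups), and 3 were found; chance alone gives about 1 in 20 groups. CALB2 in SGA CON replicate 6 was at 195 CPM, where the next highest library of the group had 104 CPM. This library is the SGA piglet of litter 12. Among SGA piglets it also had the highest STMN1 level, 919 CPM, and the lowest DPYSL3 level, 2.47 CPM. Its TMM scaling factor, 0.899, was the lowest of all libraries, so the litter 12 values of these genes share 1 unusual library. SOX11 in SGA HF replicate 3 was at 13.2 CPM, with the next at 8.91 CPM. DPYSL3 in SGA HF replicate 2 was at 5.00 CPM, below the next lowest at 6.56 CPM.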

How the results depend on the processing

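Of 1929 recomputed single-gene values, 10 reversed a value larger than its standard error and 211 changed the sign of one that was smaller. All 10 came from 1 cohort alone. In cohort 1 these were DCX for size (0.32 on the log2 scale) and for SGA CON against AGA CON (0.17), and CALB2 for diet (0.084 in edgeR, 0.060 over litter means) and STMN1 for sex (0.036). In cohort 2 these were CALB1 for the interaction (-0.96 in edgeR, -0.26 over littermate differences), for SGA CON against AGA CON (0.63) and for SGA HF against SGA CON (-0.56), and STMN1 for SGA CON against AGA CON (0.053). The cause was not tested.

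Counts over the 8 genes were small and moved by 1 or 2. With the false discovery rate taken over the size contrast alone, 1 gene was called, STMN1. For size, the 2 genes with an unadjusted p under 0.05 became 0 with the litter as replicate block, 0 without surrogate variables, 0 with cohort in their place, 1 in DESeq2, 0 in cohort 1 alone and 1 in cohort 2 alone. The count for SGA HF against AGA HF went from 1 to 0 with the block, without surrogate variables, with cohort in their place, without the filter and in cohort 2 alone. In other comparisons a count of 0 became 1, with limma voom and in cohort 1 alone for the interaction, SGA CON against AGA CON and SGA HF against SGA CON, without the filter for diet and AGA HF against AGA CON, and with plain library totals for diet over litter means. The litter block turned no call at the FDR threshold for these genes. At an unadjusted p under 0.05 it moved only the counts given here.

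With each litter left out, FDR calls lay between 0 and 2 for size (2 without litter 5, STMN1 and DPYSL3). They lay between 0 and 1 for SGA HF against AGA HF (1 without litter 5, STMN1). The fit without litter 5 called many genes, 1284 of all 16326 tested for size. For SGA HF against AGA HF it called 723 higher and 386 lower, where all 12 litters gave 41 and 6. Counts at an unadjusted p under 0.05 lay between 1 and 3 for size, 0 and 2 for diet, for SGA HF against AGA HF and for SGA HF against SGA CON, and 0 and 1 for the interaction, SGA CON against AGA CON and AGA HF against AGA CON. In the exact tests they lay between 0 and 2 for littermates (2 without litter 12), 0 and 1 for diet, interaction and sex, and 2 and 3 for cohort. The number of all tested genes called for size was 78 in the main fit and 0 in either cohort alone. It was 420 with the litter block and 1200 with the rate taken over that contrast alone. With 1 litter left out it lay between 19 (without litter 9) and 1284 (without litter 5). DCX and CALB1 are limited by their few reads, and CALB1 was not tested with 1 CPM required in 6 libraries. Diet has no fit with the litter block because littermates share a diet, and counts within a cohort were not made for the diet, interaction and sex exact tests, where 3 against 3 litters or fewer cannot reach 0.05.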
